A study of Mus musculus with 6 samples.

Results

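The genes described here are imprinted genes of the mouse, which in at least some tissues are transcribed mainly or only from the chromosome of a single parent. The parental classes used below name that copy. Whether it was the copy expressed in these cells was not measured. They were taken from a list of 50 symbols, which names 49 distinct genes because Zac1 is an older symbol of Plagl1. A gene was measured where an array probeset was annotated with its symbol and no other, and 41 of the 49 met that rule, each by 1 probeset, among 19938 genes measured in all. The 41 comprise 22 paternally expressed genes, 17 maternally expressed genes, and Grb10 and Dlx5, for which the expressed copy depends on the transcript or is debated. Snrpn, Ube3a and Gnas had only probesets shared with other symbols, and H19, Peg13, Kcnq1ot1, Zrsr1 and Slc22a3 were not analysed here.

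The samples were cells of E14, a mouse embryonic stem cell line. The treated samples received 0.5 mM valproic acid (VPA, 2 arrays) or 0.2 mM sodium butyrate (NaBu, 2 arrays) for 16 h, and the control samples were untreated (2 arrays). All 6 samples shared the line, a layer of mitomycin-C-treated primary embryonic fibroblasts, serum and leukemia inhibitory factor. The line is 1 genetic background, no vehicle is named for the controls, and RNA of the fibroblast layer could enter every sample. Nothing states that the 2 replicates of a group came from separate cultures, so p-values measure only the spread between these arrays. Arrays with the same replicate number deviated together from their group means, with correlations over all genes of 0.558 between VPA and control, 0.693 between NaBu and control and 0.567 between VPA and NaBu. Each treated array is therefore also set against the control array of its own number, giving a difference in set 1 and a difference in set 2.

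Most imprints are marks of DNA methylation laid down in the egg or the sperm and kept in the embryo. At such a locus a control region, often with a noncoding RNA such as Airn or Kcnq1ot1, keeps genes on the silent chromosome off through methylation, histone deacetylation and repressive histone methylation. The factor ZFP57 binds a methylated hexamer, TGCCGC, at imprinted control regions and recruits TRIM28, which holds DNA methylation in place in embryonic stem cells. VPA and butyrate are short-chain fatty acids that inhibit histone deacetylases. The array reads the sum of both parental copies, so it cannot tell higher output of the active copy from loss of silencing of the other.

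Promoters were read from RefSeq on GRCm38.p6 as the 250 bases upstream of each transcription start. Of the 41 measured genes, 33 had an entry, giving 47 windows, since 10 genes had several starts. These windows held a median of 13 CpG dinucleotides, against 6 in the 32851 windows of all genes, and a median GC content of 60.4%, against 52.4%. TGCCGC on either strand occurred in 11 of the 47 windows (23.4%), which belong to 10 genes, against 2850 of all windows (8.68%). Overlapping Mest windows were counted separately. The hexamer itself contains a CpG, and the shares were not matched for CpG or GC content. No other motif was searched, and a match describes letters only. The windows below are those of the 6 genes with the largest moderated t for VPA except Usp29, plus Mest. Mest was chosen after the motif search because it held the hexamer more than once. The Usp29 window, not printed, holds 0 hexamers and 14 CpG. The hexamer and its reverse complement are in capitals, and each strand is given 5′ to 3′.
Nnat, chr2:157559828-157560077, plus strand: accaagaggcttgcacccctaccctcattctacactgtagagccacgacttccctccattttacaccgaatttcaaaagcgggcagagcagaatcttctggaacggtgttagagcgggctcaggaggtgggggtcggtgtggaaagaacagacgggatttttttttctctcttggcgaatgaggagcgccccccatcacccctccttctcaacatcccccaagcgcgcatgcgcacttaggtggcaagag
Igf2r, chr17:12769707-12769956, minus strand: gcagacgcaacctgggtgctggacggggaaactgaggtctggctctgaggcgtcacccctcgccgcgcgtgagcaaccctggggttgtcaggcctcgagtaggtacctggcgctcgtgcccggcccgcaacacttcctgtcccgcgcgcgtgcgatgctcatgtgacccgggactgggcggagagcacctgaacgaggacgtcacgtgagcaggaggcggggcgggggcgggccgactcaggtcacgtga
Phlda2, chr7:143502525-143502774, minus strand: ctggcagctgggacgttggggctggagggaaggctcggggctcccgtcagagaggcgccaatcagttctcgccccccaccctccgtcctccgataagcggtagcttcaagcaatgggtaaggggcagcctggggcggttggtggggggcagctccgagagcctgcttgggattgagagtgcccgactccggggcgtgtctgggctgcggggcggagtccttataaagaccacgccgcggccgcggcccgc
Slc22a18, chr7:143473539-143473788, plus strand: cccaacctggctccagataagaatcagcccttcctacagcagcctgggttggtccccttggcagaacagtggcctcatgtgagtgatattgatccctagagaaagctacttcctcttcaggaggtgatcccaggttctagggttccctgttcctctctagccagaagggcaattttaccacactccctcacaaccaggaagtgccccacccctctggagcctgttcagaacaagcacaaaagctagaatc
Zdbf2, chr1:63200108-63200357, plus strand: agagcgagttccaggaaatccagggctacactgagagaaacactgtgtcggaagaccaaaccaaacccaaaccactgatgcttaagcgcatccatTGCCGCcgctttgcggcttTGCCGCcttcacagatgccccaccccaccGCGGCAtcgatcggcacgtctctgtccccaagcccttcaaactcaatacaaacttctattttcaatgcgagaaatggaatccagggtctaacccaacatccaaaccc
Mest, chr6:30737800-30738049, plus strand: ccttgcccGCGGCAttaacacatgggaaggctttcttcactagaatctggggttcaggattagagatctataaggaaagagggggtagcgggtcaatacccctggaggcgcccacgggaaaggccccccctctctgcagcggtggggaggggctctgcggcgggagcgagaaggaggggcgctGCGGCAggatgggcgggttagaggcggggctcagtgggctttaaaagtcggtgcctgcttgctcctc

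Zdbf2 and Mest have further windows that are not printed, with 0 hexamers and 26 CpG for Zdbf2 at chr1:63273019-63273268 and 0 hexamers and 7 CpG for Mest at chr6:30733256-30733505. A further Mest window, chr6:30737803-30738052, overlaps the printed one and holds 2 hexamers. Of the printed windows, those of Igf2r and Phlda2 are the richest in CpG, with 27 and 21, and that of Slc22a18 has 0. Nnat has 12, Zdbf2 13 and Mest 14. The hexamer appears 3 times in the printed Zdbf2 window, 2 times in the printed Mest window and in none of the other 4 printed. The Peg3 and Usp29 windows overlap each other on opposite strands. The remaining genes with the hexamer are Calcr, Copg2, Mcts2, Meg3, Osbpl5, Plagl1, Slc22a2 and Zim1.

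All values are log2 expression as the authors deposited it, and a difference of log2 values is a log2 fold change. The mean over the 6 arrays lay between 3.29 (Airn) and 11.67 (Cd81) for the 41 genes, and 14 of them, 9 paternally and 4 maternally expressed and Dlx5, lay below 5.77, the median of all genes. Brightness differs between probesets, so these levels do not rank the genes. The 14 pluripotency markers listed as stem cell genes averaged 10.22 and 10.19 in the VPA arrays, 10.58 and 10.38 in the NaBu arrays, and 10.60 and 10.43 in the control arrays.

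VPA was compared with control to ask whether an inhibitor of histone deacetylases changes imprinted gene expression in stem cells. The paternally expressed Nnat and the maternally expressed Igf2r were highest in the VPA arrays. The maternally expressed Phlda2 and the paternally expressed Zdbf2 had their lowest group mean there. None of the 41 passed an adjusted p of 0.05 in limma. The background is also 0 of 19938 genes (0% called), with 0.964 as the smallest adjusted p. At an unadjusted p under 0.05, 4 of 41 imprinted genes (9.76%) stood apart, against 4.92% of all genes (981). With the replicate number as a block, 8 of 41 (19.5%) did, now with Peg10, Mest, Grb10 and Slc22a18, against 13.2% of all genes (2636), and again none passed after adjustment, with 0.201 as the smallest adjusted p. With the block the VPA intervals were 0.08 to 0.60 for Mest and 0.10 to 0.81 for Peg10. They were 0.20 to 0.70 for Slc22a18 and −0.88 to −0.04 for Grb10. Treatment intervals elsewhere come from the fit without the block, whose spread includes the difference between replicate numbers. An exact permutation test of 2 arrays against 2 cannot give less than 0.333.

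Nnat encodes neuronatin, a small membrane proteolipid of the developing brain and of endocrine cells, and its gene lies inside an intron of Blcap. It read 6.87 and 5.90 in the VPA arrays, 5.42 and 5.61 in the NaBu arrays, and 5.23 and 5.22 in the control arrays. Both VPA arrays were above both controls, and the VPA arrays differed from each other by more than the NaBu and control arrays did. VPA exceeded control by 1.16 (95% interval 0.43 to 1.89), a 2.23-fold difference, with an unadjusted p of 0.00766 and an adjusted p of 0.964 in limma. Set 1 gave a difference of 1.64 and set 2 a difference of 0.68. Without VPA replicate 1 it was 0.67, and without VPA replicate 2 it was 1.65. Its promoter window holds no ZFP57 hexamer.

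Igf2r encodes the receptor that clears insulin-like growth factor 2, and in undifferentiated stem cells it is known to be transcribed from both copies, the paternal copy falling silent on differentiation. It read 9.78 and 9.81 in the VPA arrays, 9.10 and 9.65 in the NaBu arrays, and 8.93 and 9.25 in the control arrays. The VPA arrays lay above every NaBu and control array, and the NaBu and control ranges overlapped. The difference of VPA from control was 0.71 (0.20 to 1.22), or 1.63-fold, at 0.86 in set 1 and 0.56 in set 2, with an adjusted p of 0.964. Airn, the noncoding RNA that overlaps Igf2r and silences it, was dim, at 3.13 and 3.24 in the VPA arrays, 3.30 and 3.48 in the NaBu arrays, and 3.34 and 3.28 in the control arrays. Slc22a2, a cation transporter of the same domain, read 4.30 and 4.35 in the VPA arrays, 4.21 and 4.26 in the NaBu arrays, and 4.24 and 4.51 in the control arrays. For VPA against control the Airn difference was −0.13 and the Slc22a2 difference −0.05, with intervals that include 0.

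The Kcnq1ot1 domain of chromosome 7 held 7 measured genes, and its neighbours Phlda2 and Slc22a18 lay on opposite sides of control under VPA, neither passing the adjusted test. Phlda2, a pleckstrin-homology protein that restricts placental growth, read 8.62 and 8.28 in the VPA arrays, 8.96 and 8.55 in the NaBu arrays, and 9.24 and 8.81 in the control arrays. Within each set the VPA array was lowest and the control array highest. Its VPA difference was −0.58 (−1.11 to −0.04), or 0.67-fold, at −0.63 in set 1 and −0.53 in set 2, with an adjusted p of 0.964. Slc22a18, an organic cation transporter, read 6.62 and 6.89 in the VPA arrays, 6.22 and 6.54 in the NaBu arrays, and 6.11 and 6.50 in the control arrays. Both VPA arrays were above both controls, by 0.45 (−0.02 to 0.92), or 0.51 in set 1 and 0.38 in set 2. With 1 array left out the VPA difference ranged between −0.80 (without control replicate 2) and −0.36 (without control replicate 1) for Phlda2, and between 0.25 (without control replicate 1) and 0.65 (without control replicate 2) for Slc22a18. The other genes of the domain showed smaller values. Cd81, a tetraspanin, read 11.63 and 11.78 in the VPA arrays, 11.64 and 11.76 in the NaBu arrays, and 11.60 and 11.59 in the control arrays. Nap1l4, a histone chaperone, read 10.64 and 10.61 in the VPA arrays, 10.70 and 10.66 in the NaBu arrays, and 10.66 and 10.60 in the control arrays. Their VPA differences, 0.11 (−0.19 to 0.40) for Cd81 and 0.00 (−0.27 to 0.26) for Nap1l4, had intervals that include 0, as did those of Tssc4, a splicing-related protein (0.00), Ascl2, a helix-loop-helix factor of the placenta (−0.05), and Osbpl5, an oxysterol-binding protein (−0.09).

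Zdbf2, a zinc-finger protein gene on chromosome 1, read 8.80 and 8.85 in the VPA arrays, 8.97 and 8.88 in the NaBu arrays, and 9.10 and 9.15 in the control arrays. The 3 groups did not overlap, with control above NaBu and NaBu above VPA. The VPA difference was −0.30 (−0.57 to −0.03), at −0.30 in set 1 and −0.29 in set 2, with an adjusted p of 0.964. Among the 22 paternally expressed genes Zdbf2 had the lowest VPA difference.

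**Figure D1:**
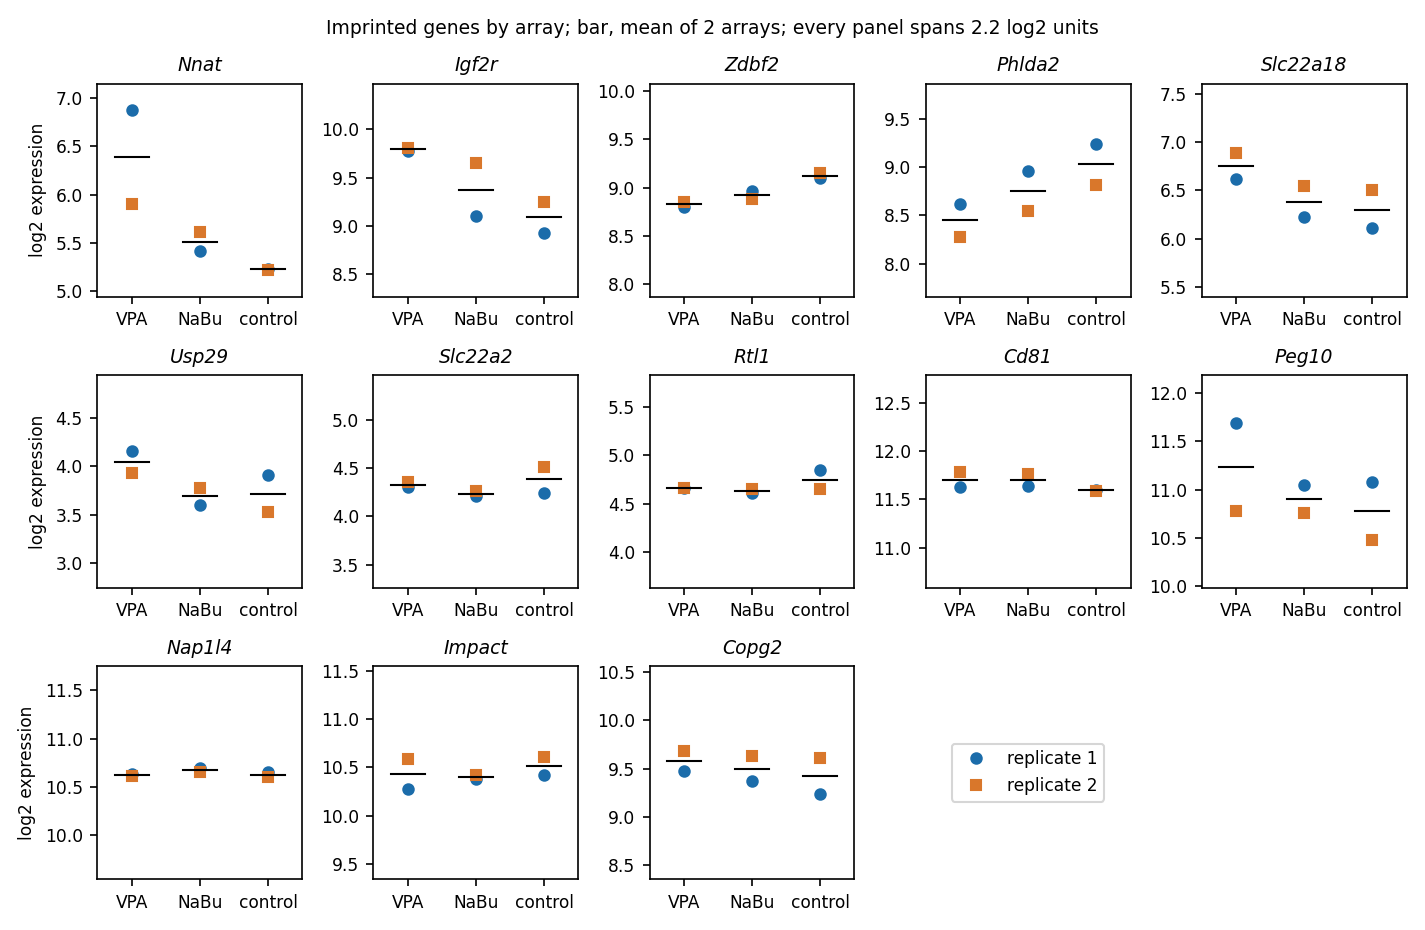
Log2 expression of the 13 imprinted genes with the largest moderated t for VPA or NaBu or the highest mean level, 1 panel per gene, with VPA, NaBu and control from left to right; circles are replicate 1, squares replicate 2, and the bar is the mean of the 2 arrays. Every panel spans the same number of log2 units: Nnat and Igf2r stand highest in both VPA arrays, while Cd81, Nap1l4 and Impact differ little between groups.

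The domain with Peg3 and Usp29 is transcribed from the paternal chromosome from a shared promoter region, and both genes read above control under VPA without passing the test. Usp29, of the ubiquitin-specific protease family, was dim and read 4.16 and 3.93 in the VPA arrays, 3.60 and 3.78 in the NaBu arrays, and 3.91 and 3.53 in the control arrays. Its VPA difference was 0.33 (−0.09 to 0.74), at 0.25 in set 1 and 0.40 in set 2. It was 0.14 without control replicate 2, 0.21 without VPA replicate 1 and 0.51 without control replicate 1. Peg3, a zinc-finger protein, read 8.25 and 8.03 in the VPA arrays, 7.37 and 8.24 in the NaBu arrays, and 7.65 and 7.86 in the control arrays. Peg3 differed from control by 0.38 (−0.30 to 1.07), and the NaBu arrays ran from below both controls into the VPA range. The maternally expressed neighbour Zim1, a zinc-finger gene, differed by 0.04, with 0.39 in set 1 and −0.32 in set 2.

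On proximal chromosome 6, Peg10 is a retrotransposon-derived gene needed for the placenta. It read 11.69 and 10.78 in the VPA arrays, 11.05 and 10.76 in the NaBu arrays, and 11.08 and 10.48 in the control arrays. The groups overlapped, since replicate 1 was brighter than replicate 2 throughout, while within the sets VPA exceeded control by 0.61 and 0.30. Its pooled VPA difference was 0.45 (−0.36 to 1.27). Sgce, epsilon-sarcoglycan, which shares a promoter region with Peg10, differed by 0.02. In the same cluster Calcr, the calcitonin receptor, differed by 0.10, Ppp1r9a, an actin-binding phosphatase subunit, by −0.05, and Dlx5, a homeobox gene, by 0.16.

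Mest, a hydrolase-fold protein of mesoderm, read 8.69 and 8.06 in the VPA arrays, 8.38 and 7.85 in the NaBu arrays, and 8.43 and 7.65 in the control arrays. Its VPA difference of 0.34 (−0.48 to 1.16) was 0.27 in set 1 and 0.41 in set 2. The neighbour Copg2, a vesicle coat protein, read 9.48 and 9.68 in the VPA arrays, 9.37 and 9.63 in the NaBu arrays, and 9.24 and 9.61 in the control arrays. The Copg2 ranges of all groups overlapped, and its VPA difference was 0.16 (−0.27 to 0.58). Klf14, a Kruppel-like factor of the region, differed from control by −0.13 under VPA.

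Grb10, an adaptor that damps insulin receptor signalling, read 8.24 and 8.37 in the VPA arrays, 8.96 and 8.56 in the NaBu arrays, and 9.11 and 8.42 in the control arrays. Both VPA arrays were below both controls, but set 1 gave −0.87 and set 2 gave −0.05. The pooled value of −0.46 (−1.07 to 0.15) did not pass the test. Plagl1, a zinc-finger transcription factor, was similarly uneven in the other direction, with 0.73 in set 1 and 0.08 in set 2 and 0.41 (−0.51 to 1.32) when pooled. The genes beside Snrpn showed little difference from control: Ndn, a growth suppressor of the MAGE family, 0.03, Peg12, a relative of the Frat proteins, 0.08, Mkrn3, a ubiquitin ligase, 0.12, and Magel2, a MAGE-family ligase regulator, 0.14.

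In the Dlk1-Dio3 domain VPA differences ran between −0.17 and 0.19. Dlk1, a relative of the Notch ligands, differed by 0.19, the noncoding RNA Meg3 by 0.06, and Dio3, a deiodinase that inactivates thyroid hormone, by −0.17. Rtl1, a retrotransposon-derived gene, was dim and read 4.66 and 4.66 in the VPA arrays, 4.61 and 4.65 in the NaBu arrays, and 4.85 and 4.65 in the control arrays. Only control replicate 1 stood above the rest for Rtl1, whose VPA difference was −0.09 (−0.38 to 0.21). The fetal growth factor Igf2 differed by 0.13 (−0.81 to 1.08). Impact, an inhibitor of the kinase GCN2, read 10.28 and 10.59 in the VPA arrays, 10.38 and 10.42 in the NaBu arrays, and 10.42 and 10.61 in the control arrays. The VPA range overlapped both other groups, both NaBu arrays lay at or just below the lower control, and the VPA difference was −0.08 (−0.44 to 0.28). Of the remaining genes, Mcts2, a retrogene of Mcts1 whose probes may also read its parent, differed by 0.24 and the inositol phosphatase Inpp5f by 0.22. Rasgrf1, an exchange factor for Ras (−0.02), Sfmbt2, a Polycomb-associated protein (−0.03), Commd1, a regulator of copper transport (−0.15), and Dcn (−0.27) all had intervals that include 0.

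Counted by sign, 18 of 41 genes (43.9%) were above control in both sets under VPA, against 32% of all genes. A further 9 (22%) were below control in both sets, against 28%, and 14 (34.1%) differed in sign between the sets, against 39.8%. In 9 genes (22%) both VPA arrays were above both controls, against 19.1% of all genes, and in 5 (12.2%) both were below, against 15.6%. The first group is Nnat, Igf2r, Peg3, Ndn, Magel2, Slc22a18, Cd81, Usp29 and Dlx5, and the second is Phlda2, Grb10, Airn, Zdbf2 and Klf14.

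**Figure D2:**
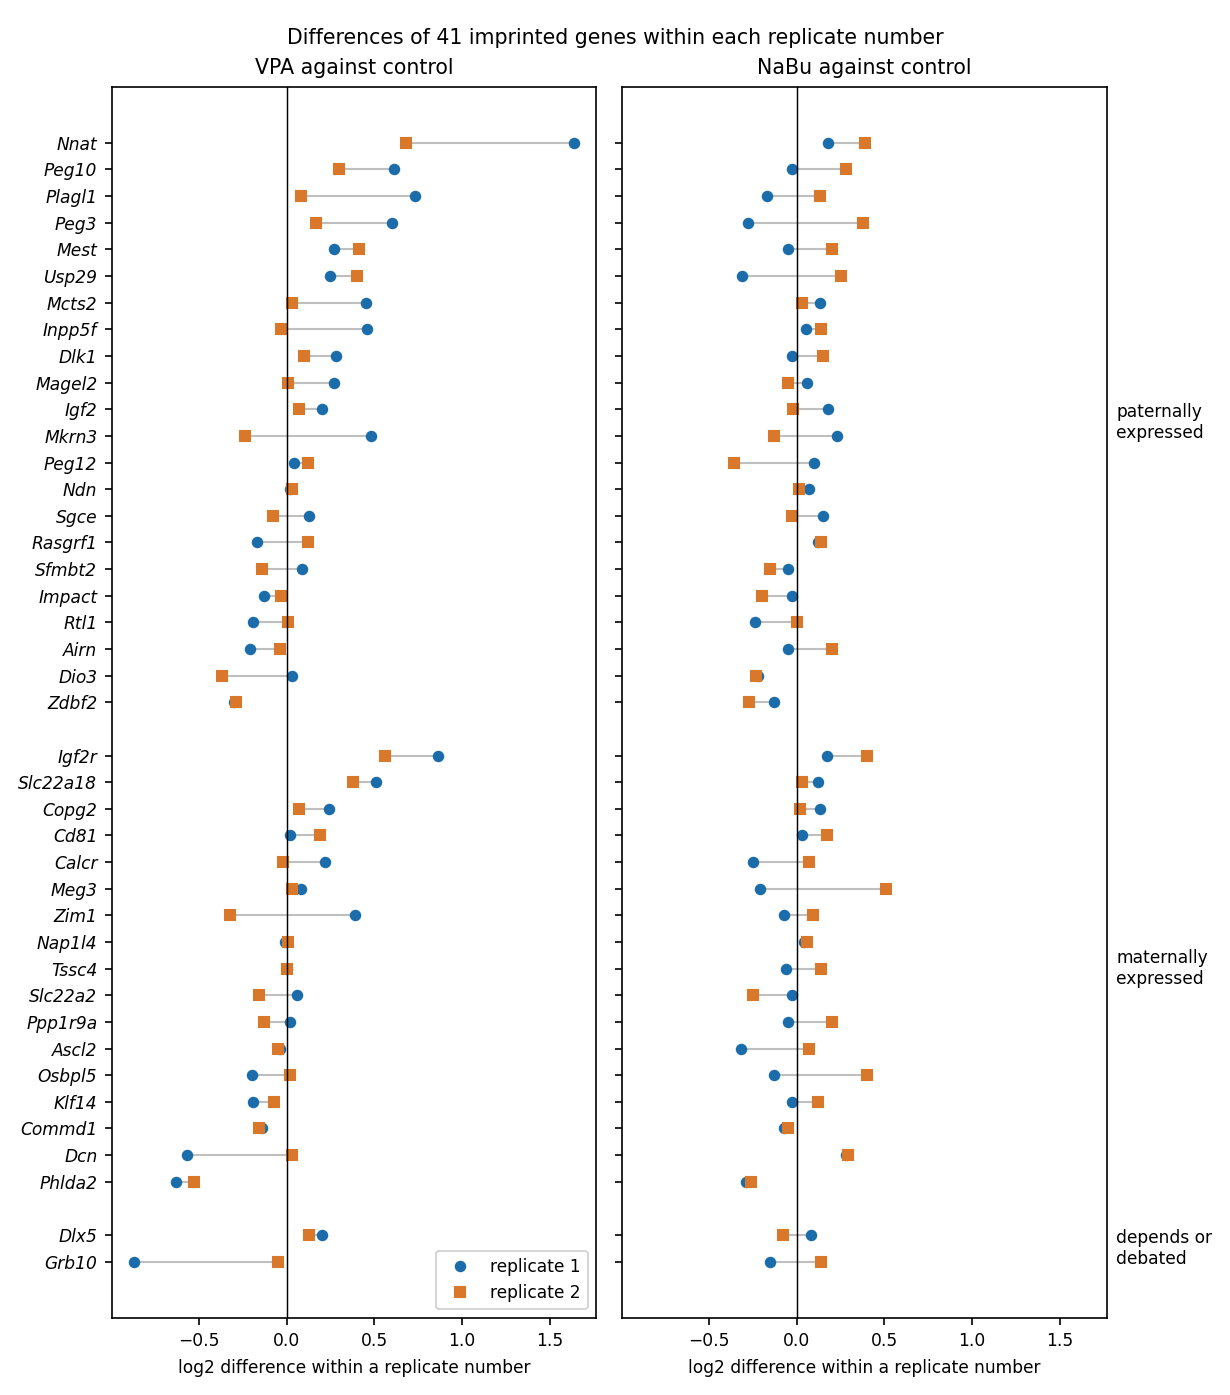
Log2 difference from control within set 1 (circles) and set 2 (squares) for each of the 41 imprinted genes, VPA on the left and NaBu on the right, grouped by the parental copy expressed and ordered by the pooled VPA difference. Nnat (1.64 and 0.68) and Igf2r (0.86 and 0.56) lie farthest to the right under VPA and Phlda2 (−0.63 and −0.53) lies to the left, while the NaBu points stay closer to 0.

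Setting the parental classes against each other, the median VPA difference was 0.13 for the 22 paternally expressed genes and 0.00 for the 17 maternally expressed genes, with 0.01 for all genes. The paternal median minus the maternal median was thus 0.13 when pooled, 0.20 in set 1 and 0.04 in set 2. These gaps are of the size of the spread between the sets (SD 0.11), and without control replicate 1 the pooled gap was −0.01. Over the genes imprinted in many tissues alone it was 0.03. By the pooled difference 15 of 22 paternally expressed genes (68.2%) and 7 of 17 maternally expressed genes (41.2%) lay above control, against 53% of all genes. Above control in both sets were 12 of 22 paternally expressed genes (54.5%) and 5 of 17 maternally expressed genes (29.4%), against 32% of all genes. Below control in both sets were 3 paternally expressed genes, Impact, Airn and Zdbf2, and 5 maternally expressed genes, Phlda2, Ascl2, Tssc4, Commd1 and Klf14 (13.6% and 29.4%, against 28% of all genes). These counts by sign have no minimum size, and Tssc4 stood at 0.00 in both sets after rounding. Both classes held genes on either side, Nnat and Zdbf2 at the ends of the paternal class and Igf2r and Phlda2 at the ends of the maternal class. For NaBu both class medians were 0.05, and the gap was 0.02 within set 1, against −0.07 within set 2.

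**Figure D3:**
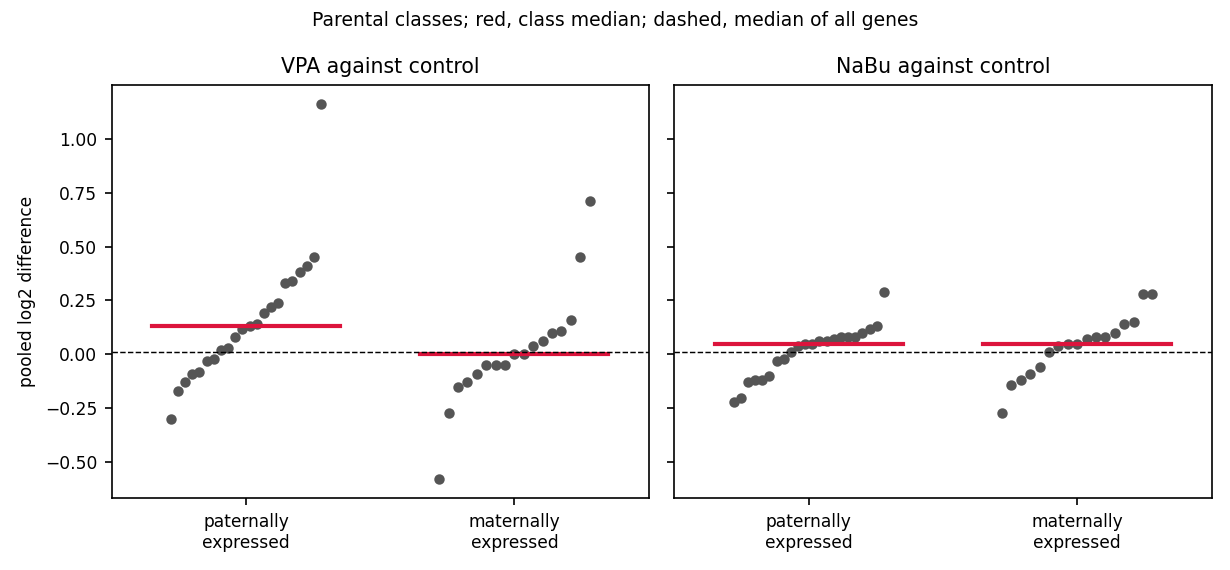
Pooled log2 difference from control for each paternally expressed gene (22 points) and each maternally expressed gene (17 points), VPA on the left and NaBu on the right, in ascending order within a class; red lines are class medians and the dashed line is the median of all genes. Under VPA the class medians are 0.13 and 0.00 and the ranges overlap; under NaBu both medians are 0.05.

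Under 0.2 mM NaBu the differences of the 41 imprinted genes from control lay between −0.27 and 0.29 on the log2 scale. None of the 41 passed an adjusted p of 0.05 in limma, as none of all genes did (0%, smallest adjusted p 1). At an unadjusted p under 0.05 there were 0 of 41, against 1.56% of all genes (311). With the replicate block the count was 1 of 41, Phlda2, against 4.59% (916). Nnat differed by 0.29 (−0.44 to 1.01), Igf2r by 0.28 (−0.22 to 0.79) and Phlda2 by −0.27 (−0.81 to 0.26). In each of these the sets had the same sign, at 0.18 and 0.39 for Nnat, 0.17 and 0.40 for Igf2r, and −0.29 and −0.26 for Phlda2. With 1 array left out, Igf2r ranged between 0.01 (without NaBu replicate 2) and 0.56 (without NaBu replicate 1), being 0.12 without control replicate 1 and 0.44 without control replicate 2. Phlda2 was −0.06 without control replicate 1, −0.07 without NaBu replicate 2, −0.48 without NaBu replicate 1 and −0.49 without control replicate 2. Zdbf2 (−0.20), Slc22a2 (−0.14) and Rtl1 (−0.12) were the others among the 6 ranked highest by size of moderated t. All were below control, with intervals that include 0. In 11 genes (26.8%) both sets were above control, against 29.1% of all genes, in 8 (19.5%) both were below, against 23.1%, and in 22 (53.7%) the sets differed in sign, against 47.6%. Both NaBu arrays lay above both controls in 5 genes (12.2%, against 12.7% of all genes) and below them in Rtl1, Impact and Zdbf2 (7.32%, against 11.2%).

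VPA and NaBu were applied at different doses, 0.5 mM and 0.2 mM, and both comparisons above use the same control arrays. Set against each other, none of the 41 genes passed an adjusted p of 0.05 (0% of all genes called, smallest adjusted p 0.998). At an unadjusted p under 0.05 there was 1 of 41, Nnat, against 3.63% of all genes. VPA exceeded NaBu for Nnat by 0.87 (0.15 to 1.60), at 1.46 in set 1 and 0.29 in set 2. Igf2r differed by 0.43 (−0.08 to 0.93), Slc22a18 by 0.37 (−0.10 to 0.84), Phlda2 by −0.30 (−0.84 to 0.23) and Grb10 by −0.45 (−1.07 to 0.16). With the replicate block, 8 of 41 (19.5%) had an unadjusted p under 0.05, against 10.8% of all genes, and none passed after adjustment.

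The comparison of the replicate numbers asks how far imprinted genes varied between the 2 replicate sets whatever the treatment. In a limma fit with group and replicate number, 10 of 41 genes passed an adjusted p of 0.05 between replicate 2 and replicate 1 (24.4%, against 11.6% of all genes, 2313). Of these, 4 rose in replicate 2 (9.76%, against 6.04%) and 6 fell (14.6%, against 5.56%). Dcn, decorin, a matrix proteoglycan made by fibroblasts, rose by 2.29 (1.99 to 2.59, adjusted p 0.000117), a 4.89-fold difference. For each group, replicate 2 of Dcn read 9.84 against 7.15 for VPA, 10.10 against 8.00 for NaBu and 9.81 against 7.73 for control. Its difference within groups was 2.68 for VPA, 2.10 for NaBu and 2.09 for control, all larger in size than its VPA difference of −0.27 and its NaBu difference of 0.28.

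Igf2 also rose in replicate 2, by 0.76 (0.55 to 0.97, adjusted p 0.00258), at 6.23 against 5.49 for VPA, 6.14 against 5.48 for NaBu and 6.16 against 5.29 for control. Meg3 rose by 0.64 (adjusted p 0.034) and Sgce by 0.36 (adjusted p 0.0416). Mest fell by 0.65 (adjusted p 0.00557), at 8.06 against 8.69 for VPA, 7.85 against 8.38 for NaBu and 7.65 against 8.43 for control. Every group thus had the lower Mest value in replicate 2. The others that fell in replicate 2 were Plagl1 (−0.62, adjusted p 0.0476), Peg10 (−0.60, 0.0216), Dio3 (−0.46, 0.0325), Mcts2 (−0.41, 0.0452) and Phlda2 (−0.39, 0.0269). The call depends on which arrays enter: without either NaBu replicate 5 imprinted genes and 716 of all genes passed, and without either control replicate 1370 of all genes did.

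Markers of the fibroblast layer moved with the replicate number. Of 30 measured feeder fibroblast genes, none of them among the 41, 14 rose in replicate 2 at an adjusted p of 0.05 in limma (46.7%, against 6.04% of all genes) and 0 fell (against 5.56%). Their mean was 7.77 in replicate 2 against 6.90 in replicate 1 for VPA, 7.78 against 7.11 for NaBu and 7.55 against 7.08 for control. Their part in the imprinted genes' differences was not tested, and more fibroblasts or more RNA per fibroblast cannot be told apart in bulk RNA. Between the compounds and control the feeder genes differed less, with medians of 0.03 for VPA (−0.13 in set 1, 0.21 in set 2) and 0.13 for NaBu (0.02 and 0.22). None of the 30 passed the adjusted test for VPA, and those with the largest moderated t were S100a4 (−0.47), Ccn2 (0.37) and Snai2 (0.29). S100a4 gave −1.11 in set 1 and 0.16 in set 2, while Ccn2 and Snai2 were above control in both sets. The stem cell genes had a median VPA difference of −0.30 and a median NaBu difference of −0.03, with Pou5f1, the pluripotency factor Oct4, at −0.64 under VPA, Utf1 at −0.59 and Tbx3 at −0.47. None of the 14 passed the adjusted test and 3 had an unadjusted p under 0.05 (21.4%, against 4.92% of all genes), and their part in the imprinted genes' VPA values was not tested.

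**Figure D4:**
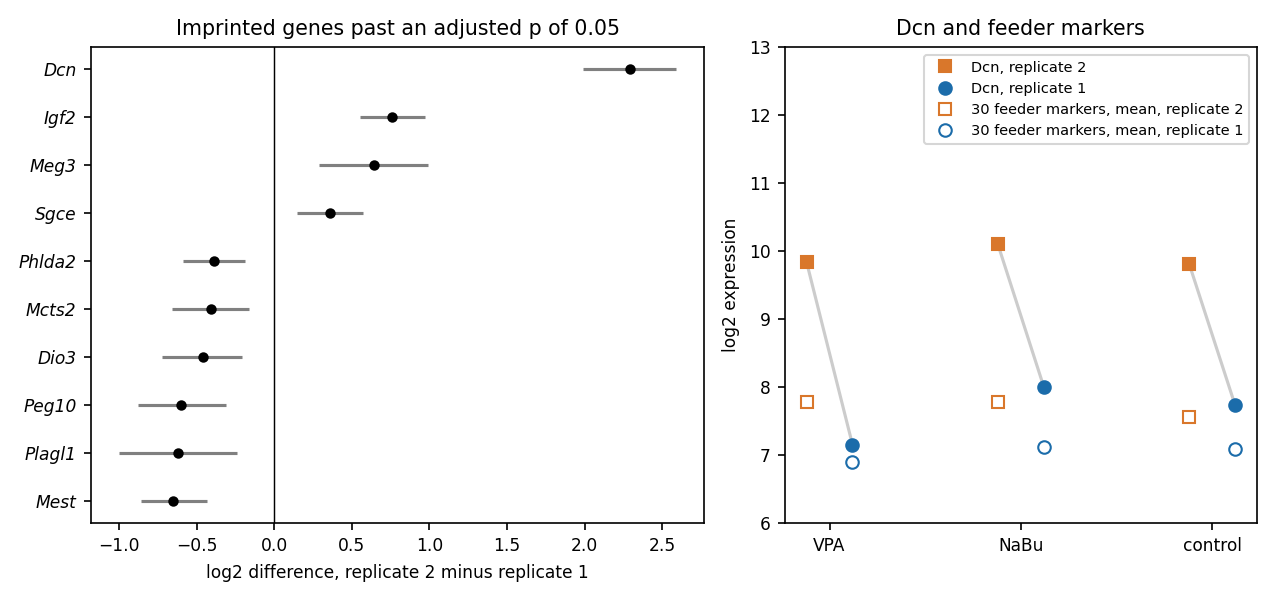
Left, log2 difference of replicate 2 from replicate 1, with 95% intervals, for the 10 imprinted genes past an adjusted p of 0.05; right, log2 expression of Dcn (filled) and the mean of 30 feeder fibroblast genes (open) by group, replicate 2 (squares) left of replicate 1 (circles). Dcn is higher in replicate 2 by 2.68, 2.10 and 2.09 in VPA, NaBu and control, and the feeder mean is also higher in replicate 2 of every group.

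Factors known to maintain or erase imprints were read from a list of 25 genes, all measured. None passed the adjusted test for VPA, and 3 had an unadjusted p under 0.05, all below control (12%, against 2.18% of all genes). With the replicate block 5 of 25 did (20%, against 13.2% of all genes), 2 of them above control. Zfp57, which binds the methylated hexamer shown above, read 10.21 and 10.01 in the VPA arrays, 11.18 and 10.54 in the NaBu arrays, and 11.13 and 10.53 in the control arrays. Both VPA arrays were below all the others, and the VPA difference was −0.73 (−1.40 to −0.06), at −0.93 in set 1 and −0.52 in set 2, while the NaBu difference was 0.02. The dioxygenases Tet2 and Tet1, which oxidise methylcytosine, differed under VPA by −0.74 (−1.21 to −0.27) and −0.60 (−1.18 to −0.02). Set 1 and set 2 gave −0.96 and −0.53 for Tet2, and −1.01 and −0.19 for Tet1. Trim28, the partner of ZFP57, differed by −0.11 (−1.06 to 0.84), and the maintenance methyltransferase Dnmt1 by 0.03 (−0.29 to 0.36). Dppa3, which protects imprints in the zygote, differed by −0.12 (−0.57 to 0.34), with 0.26 in set 1 and −0.49 in set 2. Dppa3 was dim, with array values between 4.22 and 4.72. For NaBu 1 of the 25 genes had an unadjusted p under 0.05 in limma (4%, against 1.56% of all genes). That gene was Tet3, at 0.28, named after its value was seen. With the replicate block 3 of 25 had such a p (12%, against 4.59% of all genes), all above control. Of 42 further imprinted genes outside the list, 35 were measured and none passed for VPA. The largest moderated t were those of Cobl, an actin nucleator beside Grb10, at −0.78 (−1.15 to −0.41), Cntn3, a contactin, at 0.51 (0.20 to 0.82), and Glis3, a zinc-finger factor, at 0.40 (0.11 to 0.68). Cdkn1c, the cell cycle inhibitor of the Kcnq1ot1 domain, differed by 0.27 under VPA, with 0.51 in set 1 and 0.03 in set 2.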

How the data were processed

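RNA of 6 samples was hybridised to 1-colour Affymetrix arrays. The deposited values are log2 expression per probeset; per the submitters' processing notes, the authors used RMA in Affymetrix Expression Console 1.1. RMA corrects background and normalizes arrays to each other, so shifts common to all genes are removed. The authors' genome build is not given in the sources used here. Array medians lay between 5.01 and 5.09, and the number of arrays limits the precision.

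Of 35556 probesets, 23410 were annotated, 21789 with 1 symbol and 1621 with several, and 12146 were not listed. The probeset with the highest mean stood for a gene, which mattered for 999 of the 19938 genes and for none of the imprinted ones. The tests were those of limma (lmFit and eBayes, version 3.58.1, run in R 4.3.3), with 1 mean per group over 6 arrays (3 residual degrees of freedom) and Benjamini-Hochberg adjustment over all 19938 genes at 0.05. The fit was tested on simulated data. The labels number the replicates 1 and 2 in each group; the numbers were taken to pair the arrays because same-numbered arrays deviated together, at 0.558, 0.693 and 0.567, and the fit with that block (2 residual degrees of freedom) is an alternative. The first component of the values, with 53.6% of the variance, was followed by a second with 22.2%.

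The imprinted genes and the other gene lists were chosen with earlier results of these data known, so their counts and medians are descriptions without a test of their own. Every measured imprinted gene is given by its difference. Values on each array are given for the 6 genes with the largest moderated t for VPA, the 6 for NaBu and the 6 with the highest mean; array values of other imprinted genes were added after they were seen. Other lists are given by counts and the 3 genes with the largest t for VPA, with Dnmt1, Zfp57, Trim28, Dppa3 and Cdkn1c in any case. Alternatives were median centring, quantile normalization, a filter on dim genes, the mean of a gene's probesets, an intensity trend, the replicate block, other class assignments and leaving out each replicate.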

Additional observations from a re-analysis of the deposited data

How the results depend on the processing

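The 3 comparisons between treatments (VPA or NaBu against control, VPA against NaBu) had 0 genes past an adjusted p of 0.05 in limma under centring on the median, quantile normalization, the filter on dim genes, the mean of probesets, the intensity trend, the replicate block, or with any replicate left out. With the block and a replicate left out together, added after seeing the data, 1 residual degree of freedom remains: without VPA replicate 2, 774 genes passed for VPA against control and 363 for VPA against NaBu. Without control replicate 2 there were 7 for VPA against control, 1 for NaBu against control and 1 for VPA against NaBu, and without control replicate 1 there was 1 for VPA against NaBu. Genes called between replicate 2 and replicate 1 numbered 2313, and 716 to 2434 with a replicate left out (716 without either NaBu replicate, 1370 without either control replicate); imprinted genes among them numbered 10, and 5 to 11. The replicate block, a count added after seeing the data, took imprinted genes at an unadjusted p under 0.05 to 8 (VPA, 4 without the block) and 1 (NaBu, 0 without it), and changed no adjusted call. The paternal minus maternal gap ranged with a replicate left out from −0.01 to 0.13 for VPA and −0.10 to 0.03 for NaBu. With the replicate block as well, also added afterwards, it ranged for VPA from 0.00 (without control replicate 1) to 0.23 (without control replicate 2), and for NaBu from −0.07 (−0.07 without NaBu replicate 1 and −0.07 without control replicate 1) to 0.06 (without control replicate 2). Counting only genes imprinted in many tissues gave 0.03 for VPA and −0.03 for NaBu. Gnas was not measured, so the class alternative moved Grb10 and Dlx5 only.

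Several small differences turned direction. With quantile normalization Nap1l4 for VPA was 0.04. With a replicate left out, the VPA ranges were −0.03 to 0.34 for Copg2, −0.23 to 0.07 for Impact, −0.03 to 0.03 for Nap1l4, 0.00 (just below 0) to 0.91 for Peg10, −0.19 to 0.01 for Rtl1 and −0.19 to 0.09 for Slc22a2. The NaBu ranges were −0.11 to 0.26 for Copg2, −0.17 to 0.42 for Peg10, −0.12 to 0.27 for Slc22a18 and −0.22 to 0.16 for Usp29. With the replicate block and a replicate left out, the turned VPA values were 0.01 for Impact without VPA replicate 1, 0.01 for Nap1l4 without VPA replicate 1 and 0.01 without control replicate 1, 0.02 for Rtl1 without control replicate 1 and 0.06 for Slc22a2 without control replicate 2. The turned NaBu values were −0.06 for Nnat and −0.11 for Peg10 without NaBu replicate 2, and for Usp29 0.21 without NaBu replicate 1 and 0.15 without control replicate 1. The cause was not tested. With the block and without VPA replicate 2, the VPA difference was 1.69 for Nnat, 0.91 for Igf2r and 0.81 for Plagl1. It was 0.69 for Peg10, −0.62 for Phlda2 and −0.80 for Grb10. These genes were picked by their adjusted p in that fit, so their sizes in it are no separate support. Its VPA group is 1 array, replicate 1, assumed to vary like the other groups. The set 2 differences of these genes were smaller in size, at 0.68 for Nnat, 0.56 for Igf2r and 0.08 for Plagl1. For Peg10, Phlda2 and Grb10 they were 0.30, −0.53 and −0.05.

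The arrays carry 2 replicates per group, read both parental copies together, and give no detection call, so a dim gene such as Airn or Rtl1 cannot be separated from background.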

Other observations

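Probesets shared with other symbols were kept out of the counts. The probeset annotated to both Snurf and Snrpn, the paternally expressed splicing protein of the Ndn domain, read 8.37 and 8.23 in the VPA arrays, 8.77 and 8.46 in the NaBu arrays, and 8.77 and 8.65 in the control arrays. Both VPA arrays lay below every other array, and the VPA difference was −0.40 in set 1 and −0.41 in set 2, while Ndn, Magel2, Mkrn3 and Peg12 of the same domain had pooled VPA differences between 0.03 and 0.14. The shared probeset of Ube3a, a ubiquitin ligase, stood at −0.09 under VPA, and that of Gnas, the stimulatory G protein locus, at −0.06.

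Outside the imprinted genes, a list of 12 trophectoderm genes had a median VPA difference of 0.16 (0.21 in set 1, −0.02 in set 2) and a median NaBu difference of 0.05. None of the 12 passed the adjusted test for VPA. Those with the largest moderated t were Tfap2c, a transcription factor (0.95, with 1.66 in set 1 and 0.25 in set 2), Krt8, a keratin (0.75), and Fgfr2, a growth factor receptor (0.39). The mean of the 12 was 5.94 and 5.79 in the VPA arrays, 5.53 and 5.81 in the NaBu arrays, and 5.45 and 5.75 in the control arrays.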
